A study of Gallus gallus with 8 samples.

Results

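The genes described here are 62 genes of mitosis, the spindle and the kinetochore, of 14642 genes in the deposited table. They were chosen by name, as the columns that match a set of gene symbols. No measured value entered the matching, but the set was drawn up with earlier results of these data known. All 62 reached an RPKM (read number scaled to transcript length and to the mapped reads of the library) of at least 1 in at least 2 libraries and were tested, among 11155 genes in all. By role they comprise 5 regulators of entry into mitosis, 5 mitotic kinases and passenger proteins, 6 spindle checkpoint genes, 12 genes of the centromere and inner kinetochore, 5 of the outer kinetochore, 8 spindle motors and microtubule proteins, 6 genes of the central spindle and cytokinesis, 11 of chromosome condensation and separation, and 4 further genes with a CENP or CDCA name. Symbols of the set that are not column names, among them AURKB, HMMR and ESPL1, were not analysed here. CDK1, CENPC, CENPU and CENPS are in the table under the older names CDC2, CENPC1, MLF1IP and APITD1, and their values are given beside the 62.

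RNA-Seq of chicken embryonic dorsal skin was done at Hamburger and Hamilton (H&H) stages 35 and 31, embryonic days 9 and 7, which lie after and before the onset of feather bud elongation. Epithelium and mesenchyme were separated before RNA extraction. The groups were mesenchyme at H&H 35, mesenchyme at H&H 31, epithelium at H&H 35 and epithelium at H&H 31, each with 2 libraries that the labels call batches I and II (n = 2 throughout). No treatment or allele distinguished the groups, and the labels do not state the strain or how many embryos made up a library. The paper names White leghorn chicken eggs as its egg source.

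The libraries held 22050712 to 33620383 alignments. The sums of all RPKM lay between 319873.0 and 367121.4. The labelled tissues were checked against marker genes. The summed RPKM of 12 epithelial markers, of 13 listed, was 42.9 to 43.5 in H&H 35 mesenchyme and 18.4 to 25.8 in H&H 31 mesenchyme, against 2496 to 2667 in H&H 35 epithelium and 1091 to 1325 in H&H 31 epithelium. That of 10 dermal markers, of 12 listed, was 3932 to 4404 in H&H 35 mesenchyme and 4270 to 4429 in H&H 31 mesenchyme, against 717 to 758 in H&H 35 epithelium, with COL1A2 and DCN as its main part, and 872 to 991 in H&H 31 epithelium. Mesenchyme minus epithelium in log2(RPKM + 1), single dermal markers ranged from 0.47 to 7.09 at H&H 35 and from -0.15 to 8.44 at H&H 31. The source of the dermal transcripts in epithelium was not tested. In bulk tissue, fewer dividing cells and less of these transcripts per dividing cell cannot be told apart.

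Most of these genes are transcribed late in the cell cycle and switched off in resting cells, so that their transcripts mark tissue with dividing cells. Their proteins condense chromosomes, assemble a kinetochore on each centromere, build the bipolar spindle, hold back anaphase until every kinetochore is attached, and finally separate the daughter cells. In embryonic skin both the epidermis and the dermis hold dividing cells while feather buds form and elongate. In cultured control skin the paper reports sparse BrdU labelling of feather mesenchyme. Nifedipine, which blocks voltage-gated calcium channels, raised proliferation there, and Mefloquine, which blocks gap junctions, lowered it. Taking these treatments together, the paper concludes that proliferation has no major part in oriented elongation. Its counts were of feather mesenchyme in cultured skin, not of the separated tissues sequenced here.

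Most of the 62 genes were lower at H&H 35 in mesenchyme and higher at H&H 35 in epithelium. In mesenchyme, 61 were lower at H&H 35 than at H&H 31 (21.6% of all genes tested were called lower) and 0 were higher (18.2% of all genes). In epithelium, 57 were higher at H&H 35 (18.6% of all genes) and 0 were lower (15.9% of all genes). The same shares of all genes stand beside the stage counts by role below. The median log2 change, on the scale of log2(RPKM + 1), was -0.83 in mesenchyme and 0.66 in epithelium, beside -0.03 and 0.02 over all genes tested. As a ratio of mean RPKM, H&H 35 over H&H 31, the median member stood at 0.539 in mesenchyme and 1.64 in epithelium. Calls are limma adjusted p-values under 0.05, and at an unadjusted p under 0.05 the counts of 0 stayed at 0. The same 57 genes were called in both tissues, a pattern of opposite calls that 5.58% of all genes tested showed.

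Summed over the 62 genes, the RPKM of mesenchyme was 1152 and 1326 at H&H 35 and 2213 and 2242 at H&H 31. That of epithelium was 2539 and 2448 at H&H 35 and 1604 and 1520.4 at H&H 31. As a share of all RPKM the sums came to 0.337% and 0.414% at H&H 35 and 0.654% and 0.646% at H&H 31 in mesenchyme, and to 0.692% and 0.697% at H&H 35 and 0.491% and 0.453% at H&H 31 in epithelium. H&H 35 mesenchyme was lowest in both libraries and H&H 35 epithelium highest in both, with no overlap between any of the groups. Per length, as RPKM, the group means of single genes lay between 1.72 and 75.7 RPKM in H&H 35 mesenchyme, 3.43 and 106 RPKM in H&H 31 mesenchyme, 3.26 and 131 RPKM in H&H 35 epithelium, and 3.44 and 66.7 RPKM in H&H 31 epithelium, with the mean over the groups highest for SMC2 and lowest for CENPJ.

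**Figure D1:**
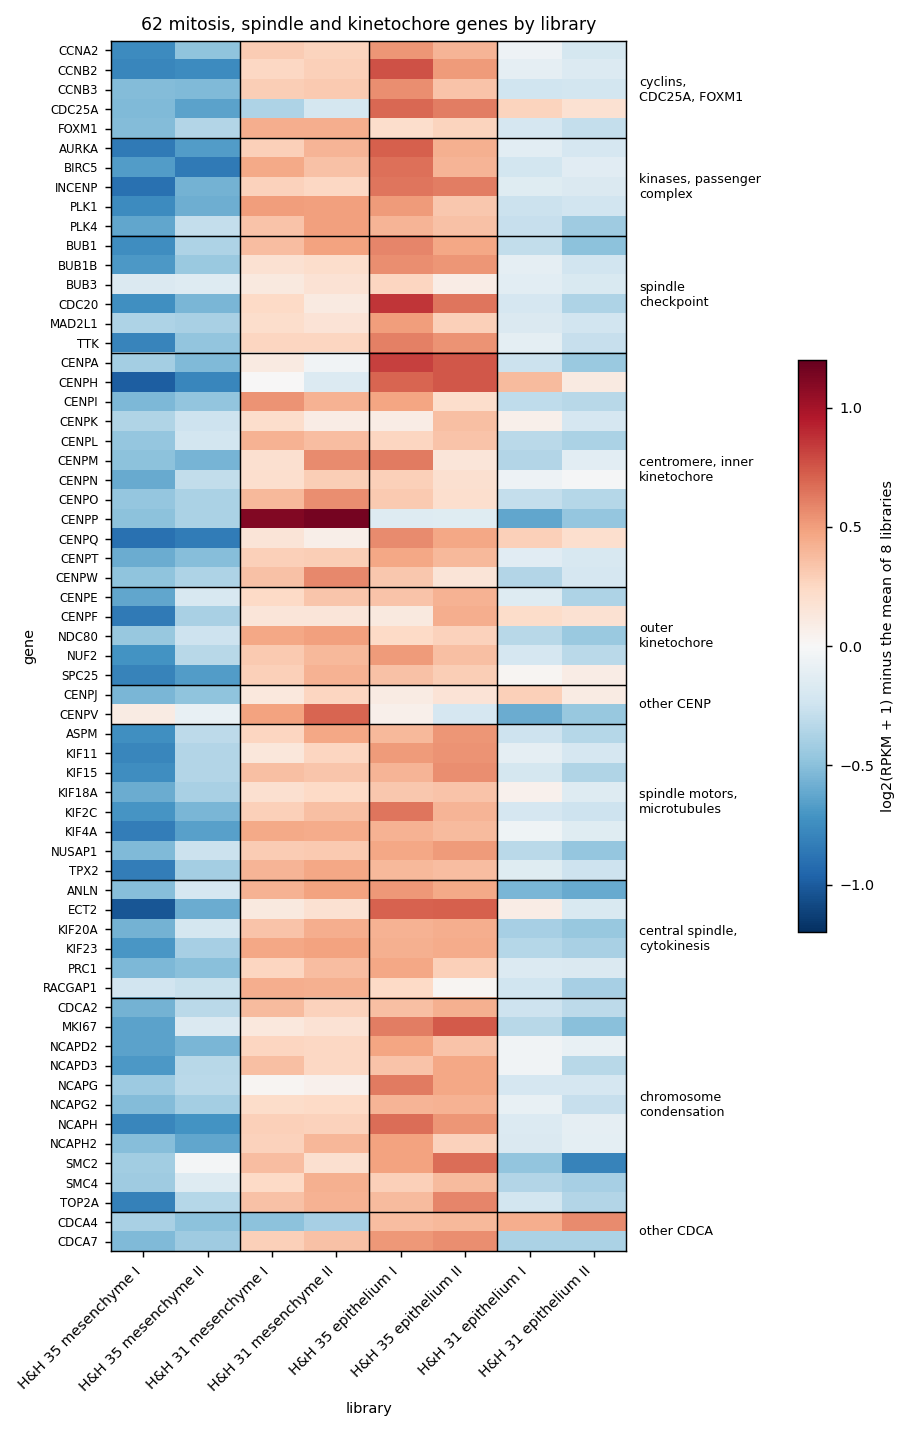
Heat map of log2(RPKM + 1) of the 62 genes (down the page, grouped by role) in the 8 libraries (across), each gene relative to its mean over the libraries, with higher values in red and lower values in blue. Most genes are blue in both H&H 35 mesenchyme libraries and red in the H&H 31 mesenchyme and H&H 35 epithelium libraries, while CDCA4 is red in all 4 epithelium libraries and CENPP in the 2 H&H 31 mesenchyme libraries alone.

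The regulators of entry into mitosis, namely CCNA2, CCNB2, CCNB3, CDC25A and FOXM1, were all called lower at H&H 35 in mesenchyme and all called higher in epithelium, with median log2 changes of -0.87 and 0.60. CCNB2, a B-type cyclin that activates CDK1 and that RefSeq lists as a synonym of CCNB1, was at 38.4 and 39.1 RPKM in H&H 35 mesenchyme and 79.4 and 81.7 RPKM in H&H 31 mesenchyme. CCNB2 in epithelium was at 114 and 95.5 RPKM at H&H 35 and 61.7 and 59.4 RPKM at H&H 31. It fell by 1.04 (SE 0.09, adjusted p = 4.73e-05) in mesenchyme and rose by 0.77 (SE 0.09, adjusted p = 0.000252) in epithelium. The 4 groups did not overlap in any library, and H&H 35 epithelium stood highest. CCNA2, the cyclin of S phase and mitotic entry, was at 25.9 and 31.5 RPKM in H&H 35 mesenchyme and 55.2 and 53.8 RPKM in H&H 31 mesenchyme. CCNA2 in epithelium was at 64.8 and 59.4 RPKM at H&H 35 and 42.7 and 38.4 RPKM at H&H 31. Its log2 change was -0.91 (SE 0.10, adjusted p = 0.00022) in mesenchyme and 0.60 (SE 0.10, adjusted p = 0.00211) in epithelium. FOXM1 is a transcription factor that drives late cell cycle genes, and it had 21.7 and 24.4 RPKM in H&H 35 mesenchyme and 43.1 and 42.97 RPKM in H&H 31 mesenchyme. FOXM1 in epithelium was at 36.6 and 38.1 RPKM at H&H 35 and 27.2 and 25.7 RPKM at H&H 31. It changed by -0.87 (SE 0.08, adjusted p = 7.54e-05) in mesenchyme and by 0.48 (SE 0.08, adjusted p = 0.00198) in epithelium, and here H&H 31 mesenchyme was above H&H 35 epithelium in every library. CDC25A, a phosphatase that activates cyclin-dependent kinases, was at 6.10 and 5.60 RPKM in H&H 35 mesenchyme and 6.96 and 7.88 RPKM in H&H 31 mesenchyme. CDC25A in epithelium was at 15.6 and 14.7 RPKM at H&H 35 and 11.4 and 10.7 RPKM at H&H 31. The changes of CDC25A were the smallest of the 5, at -0.30 (SE 0.10, adjusted p = 0.0448) in mesenchyme and 0.43 (SE 0.10, adjusted p = 0.0109) in epithelium. The mesenchymal call of CDC25A was lost with the batch number as a block (adjusted p = 0.0569) and when any one of the 8 libraries was left out (adjusted p between 0.0549 and 0.241). It was lost under 13 of 18 alternatives in all, among them equal sum and median-ratio scaling (adjusted p = 0.0754 and 0.0666). Its epithelial call was lost when H&H 31 epithelium II or H&H 35 epithelium I was left out (adjusted p up to 0.0773). CDC2, the column for CDK1 itself, averaged 94.1 RPKM in H&H 35 mesenchyme and 191 RPKM in H&H 31 mesenchyme (adjusted p = 3.47e-05), and 228 RPKM in H&H 35 epithelium and 135 RPKM in H&H 31 epithelium (adjusted p = 0.000187).

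The mitotic kinases and passenger proteins AURKA, PLK1, PLK4, BIRC5 and INCENP also took both directions without exception, with a median log2 change of -1.11 in mesenchyme and 0.73 in epithelium. PLK1 promotes centrosome maturation, spindle assembly and the exit from mitosis. It measured 40.3 and 45.7 RPKM in H&H 35 mesenchyme and 98.2 and 97.1 RPKM in H&H 31 mesenchyme. PLK1 in epithelium was at 98.9 and 86.3 RPKM at H&H 35 and 57.7 and 58.6 RPKM at H&H 31. PLK1 fell by 1.17 (SE 0.09, adjusted p = 2.71e-05) in mesenchyme and rose by 0.66 (SE 0.09, adjusted p = 0.00063) in epithelium, and both H&H 35 mesenchyme libraries lay below every other library. AURKA, the kinase of the spindle poles, measured 19.8 and 22.6 RPKM in H&H 35 mesenchyme and 44.9 and 48.7 RPKM in H&H 31 mesenchyme. AURKA in epithelium was at 60.8 and 49.6 RPKM at H&H 35 and 33.5 and 31.8 RPKM at H&H 31. In mesenchyme it fell by 1.11 (SE 0.11, adjusted p = 0.000106), and in epithelium it rose by 0.74 (SE 0.11, adjusted p = 0.00103). BIRC5 (survivin), a subunit of the chromosomal passenger complex at the inner centromere, measured 38.7 and 34.1 RPKM in H&H 35 mesenchyme and 85.3 and 79.6 RPKM in H&H 31 mesenchyme. BIRC5 in epithelium was at 98.5 and 82.4 RPKM at H&H 35 and 53.1 and 56.3 RPKM at H&H 31. Its stage change was -1.16 (SE 0.10, adjusted p = 5.55e-05) in mesenchyme and 0.71 (SE 0.10, adjusted p = 0.000865) in epithelium. INCENP, the scaffold of that complex, and PLK4, the kinase that starts centriole duplication, had log2 changes of -0.99 and -0.87 in mesenchyme and 0.79 and 0.73 in epithelium.

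All 6 spindle checkpoint genes were lower at H&H 35 in mesenchyme and higher in epithelium, with medians of -0.79 and 0.74. The checkpoint keeps the anaphase-promoting complex inactive until chromosomes are attached. CDC20, the activator of that complex and target of the checkpoint, was at 36.9 and 42.1 RPKM in H&H 35 mesenchyme and 73.4 and 66.96 RPKM in H&H 31 mesenchyme. CDC20 in epithelium was at 113 and 97.6 RPKM at H&H 35 and 53.8 and 47.8 RPKM at H&H 31. It fell by 0.82 (SE 0.11, adjusted p = 0.000448) in mesenchyme and rose by 1.04 (SE 0.11, adjusted p = 0.000125) in epithelium, so that both H&H 35 epithelium libraries stood above all others. BUB1, a checkpoint kinase of the kinetochore, was at 10.8 and 14.3 RPKM in H&H 35 mesenchyme and 24.6 and 26.6 RPKM in H&H 31 mesenchyme. BUB1 in epithelium was at 28.6 and 26.2 RPKM at H&H 35 and 15.1 and 13.1 RPKM at H&H 31. The change of BUB1 was -0.99 (SE 0.13, adjusted p = 0.000507) in mesenchyme and 0.91 (SE 0.13, adjusted p = 0.000832) in epithelium. BUB1B (BUBR1), a subunit of the inhibitory checkpoint complex, was at 19.4 and 23.2 RPKM in H&H 35 mesenchyme and 36.6 and 37.2 RPKM in H&H 31 mesenchyme. BUB1B in epithelium was at 47.5 and 46.6 RPKM at H&H 35 and 29.7 and 27.2 RPKM at H&H 31. It fell by 0.77 (SE 0.09, adjusted p = 0.000332) in mesenchyme and rose by 0.71 (SE 0.09, adjusted p = 0.000579) in epithelium, again without overlap between the 4 groups. TTK and MAD2L1 changed by -0.89 and -0.56 in mesenchyme and by 0.77 and 0.60 in epithelium. BUB3, which carries BUB1 and BUB1B to the kinetochore, changed least, by -0.31 (SE 0.08, adjusted p = 0.0135) in mesenchyme and 0.32 (SE 0.08, adjusted p = 0.0122) in epithelium. The mesenchymal call of BUB3 did not hold without H&H 31 mesenchyme II (adjusted p = 0.0834) or without H&H 35 mesenchyme I (adjusted p = 0.0503). Its epithelial call did not hold without H&H 31 epithelium II or H&H 35 epithelium I (adjusted p up to 0.0876), or with equal sum scaling (adjusted p = 0.0653). Quantile normalization ended both calls (adjusted p = 0.0693 in mesenchyme and 0.0531 in epithelium).

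**Figure D2:**
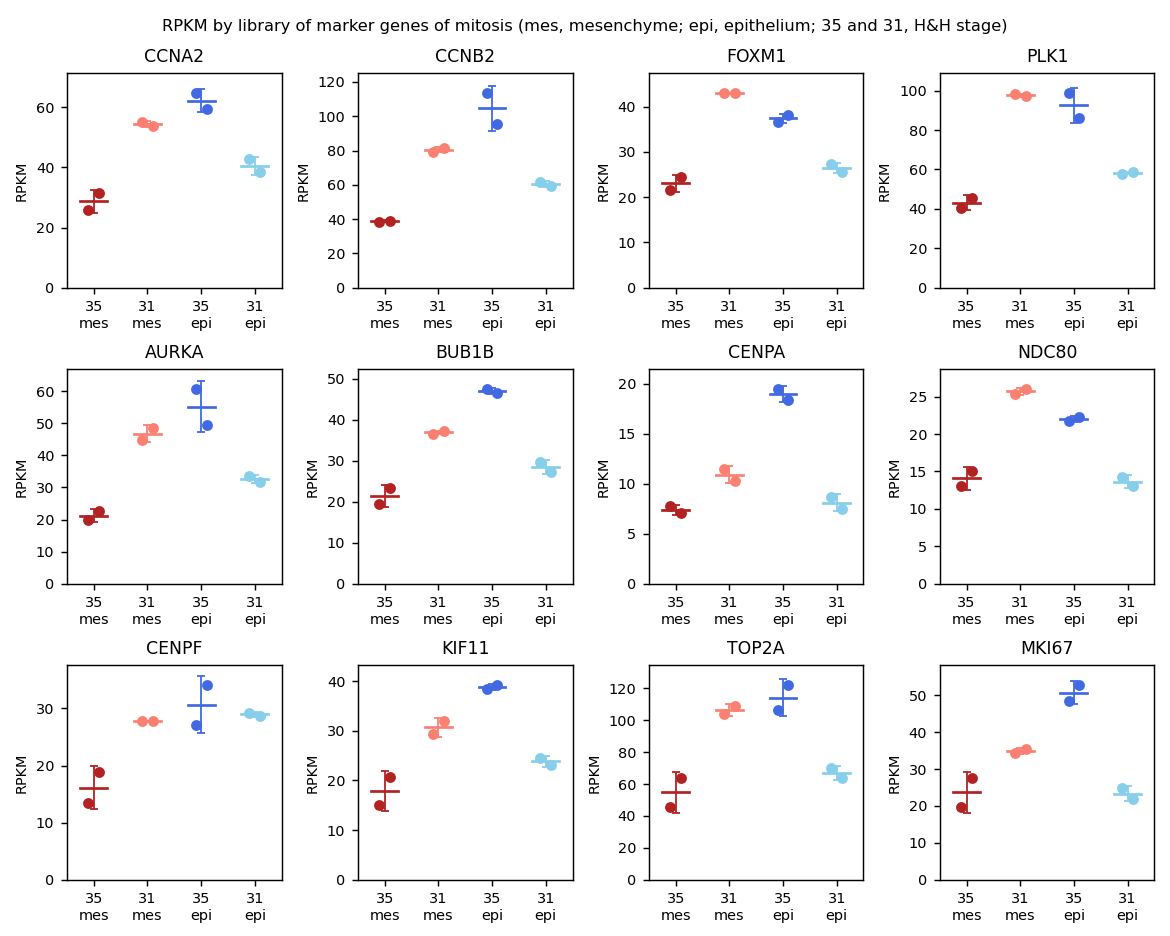
RPKM of 12 marker genes of mitosis in each library (points), with the mean (horizontal line) and SD (vertical bar, n = 2) of each group, with the mesenchyme of H&H 35 and H&H 31 and then the epithelium of H&H 35 and H&H 31 from left to right, on linear axes that start at 0. The mean of H&H 35 mesenchyme is the lowest in all panels except those of NDC80 and MKI67, where H&H 31 epithelium is slightly lower, and the epithelium libraries of CENPF overlap between the stages.

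The centromere and inner kinetochore genes were CENPA, the histone H3 variant that marks centromeres, and 11 subunits of the complex that sits on it (CENPH, CENPI, CENPK, CENPL, CENPM, CENPN, CENPO, CENPP, CENPQ, CENPT and CENPW). In mesenchyme 12 of 12 were lower at H&H 35, with a median of -0.87, and in epithelium 10 of 12 were higher, with a median of 0.54. CENPA was at 7.76 and 7.05 RPKM in H&H 35 mesenchyme and 11.5 and 10.3 RPKM in H&H 31 mesenchyme. CENPA in epithelium was at 19.5 and 18.4 RPKM at H&H 35 and 8.70 and 7.51 RPKM at H&H 31. It fell by 0.50 (SE 0.11, adjusted p = 0.00612) in mesenchyme and rose by 1.13 (SE 0.11, adjusted p = 8.08e-05) in epithelium, where both H&H 35 libraries stood above all 6 others. Without H&H 31 mesenchyme I the mesenchymal call of CENPA was lost (adjusted p = 0.0557). CENPH, one of the linker subunits, was at 18.2 and 21.1 RPKM in H&H 35 mesenchyme and 37.2 and 32.9 RPKM in H&H 31 mesenchyme. CENPH in epithelium was at 60.6 and 62.9 RPKM at H&H 35 and 48.5 and 40.1 RPKM at H&H 31. Its changes were -0.81 (SE 0.11, adjusted p = 0.000634) in mesenchyme and 0.48 (SE 0.11, adjusted p = 0.0105) in epithelium, the epithelial call being lost without H&H 31 epithelium II (adjusted p = 0.0881) and with equal sum scaling (adjusted p = 0.0671). CENPQ, a partner of CENPU in the same complex, was at 15.01 and 15.6 RPKM in H&H 35 mesenchyme and 32.1 and 30.2 RPKM in H&H 31 mesenchyme. CENPQ in epithelium was at 43.2 and 40.1 RPKM at H&H 35 and 35.3 and 33.2 RPKM at H&H 31. It fell by 0.98 (SE 0.08, adjusted p = 3.57e-05) in mesenchyme and rose by 0.28 (SE 0.08, adjusted p = 0.0255) in epithelium, and its epithelial call was absent when any epithelium library but H&H 35 epithelium II was left out (adjusted p up to 0.16). Equal sum, median-ratio and quantile scaling also ended that call of CENPQ (adjusted p = 0.192, 0.0589 and 0.13). CENPK and CENPN did not pass the test in epithelium, with changes of 0.29 (SE 0.12, adjusted p = 0.0872) and 0.28 (SE 0.11, adjusted p = 0.0877). The epithelial change of CENPM was 0.63 with all libraries and shrank to 0.39 (adjusted p = 0.164) when H&H 35 epithelium I was left out.

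CENPP, a partner of CENPO in the same complex, had the largest mesenchymal fall of the 62 genes. It was at 9.57 and 10.4 RPKM in H&H 35 mesenchyme and 31.3 and 31.97 RPKM in H&H 31 mesenchyme. CENPP in epithelium was at 12.3 and 12.5 RPKM at H&H 35 and 8.69 and 9.78 RPKM at H&H 31. The change was -1.57 (SE 0.09, adjusted p = 5.29e-06) in mesenchyme and 0.39 (SE 0.09, adjusted p = 0.00997) in epithelium, with both H&H 31 mesenchyme libraries far above the 6 others. The epithelial call of CENPP was lost without H&H 31 epithelium I (adjusted p = 0.0863) and with equal sum scaling (adjusted p = 0.0558). In the RefSeq annotation (GRCg7b, a later build than that of the files and used here only for names and neighbours) the span of CENPP overlaps those of the extracellular matrix genes OGN and ECM2, among others. The library kit does not mark strand, so that reads of overlapping genes cannot be told apart by strand. OGN was at 77.4 and 81.6 RPKM in H&H 35 mesenchyme and 81.5 and 98.0 RPKM in H&H 31 mesenchyme, and between 0.181 and 0.679 RPKM in the 4 epithelium libraries. ECM2 was at 39.7 and 37.7 RPKM in H&H 35 mesenchyme and 14.0 and 17.9 RPKM in H&H 31 mesenchyme. Between the stages in mesenchyme, OGN was near-even and ECM2 moved against CENPP. Between the tissues at H&H 31, OGN was higher in mesenchyme, as CENPP was. ECM2 was on the other side there, at 28.0 and 24.9 RPKM in H&H 31 epithelium. Only whole spans were compared, so whether exons overlap is not known here. The span also overlaps IPPK, OMD and BGN. IPPK was at 6.90 and 8.58 RPKM in H&H 35 mesenchyme and 8.45 and 9.42 RPKM in H&H 31 mesenchyme. OMD was at most at 0.0761 RPKM in any library. BGN has no column under that name, so its level is not known here. The part of these genes in the level of CENPP was not tested. Of 61 members matched to the annotation, 16 overlap the span of another protein-coding gene, CCNB2, CDC20, CDC25A, CDCA4, FOXM1 and SMC2 of those described here among them, and the same limit holds for their levels.

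The outer kinetochore genes were CENPE, CENPF, NDC80, NUF2 and SPC25. In mesenchyme 5 of 5 were lower at H&H 35 (median -0.83) and in epithelium 4 of 5 were higher (median 0.65). NDC80, the main microtubule-binding subunit, was at 13.03 and 15.1 RPKM in H&H 35 mesenchyme and 25.4 and 26.1 RPKM in H&H 31 mesenchyme. NDC80 in epithelium was at 21.7 and 22.3 RPKM at H&H 35 and 14.3 and 13.1 RPKM at H&H 31. It fell by 0.83 (SE 0.09, adjusted p = 0.000213) in mesenchyme and rose by 0.65 (SE 0.09, adjusted p = 0.000836) in epithelium. CENPF, a large protein of the outer corona of the kinetochore, was at 13.4 and 18.8 RPKM in H&H 35 mesenchyme and 27.8 and 27.8 RPKM in H&H 31 mesenchyme. CENPF in epithelium was at 27.2 and 34.2 RPKM at H&H 35 and 29.3 and 28.6 RPKM at H&H 31. In mesenchyme CENPF changed by -0.77 (SE 0.15, adjusted p = 0.00401), while in epithelium the H&H 35 libraries lay on both sides of the H&H 31 libraries and the change was 0.07 (SE 0.15, adjusted p = 0.767). That epithelial difference turned negative when RPKM were scaled to an equal sum (-0.043) and without H&H 35 epithelium II (-0.0895). NUF2, the partner of NDC80, changed by -0.88 in mesenchyme and 0.70 in epithelium. SPC25, in the same complex, changed by -1.09 (SE 0.08, adjusted p = 2.31e-05) in mesenchyme and 0.27 (SE 0.08, adjusted p = 0.0313) in epithelium, and its epithelial call was lost without any one epithelium library (adjusted p up to 0.168). Equal sum scaling, quantile normalization and a variance prior without trend ended the same call of SPC25 (adjusted p = 0.207, 0.152 and 0.0598).

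Spindle motors and microtubule proteins (ASPM, KIF2C, KIF4A, KIF11, KIF15, KIF18A, NUSAP1 and TPX2) were lower in mesenchyme at H&H 35 in 8 of 8 cases and higher in epithelium in 8 of 8, with medians of -0.89 and 0.72. KIF4A, a chromosome-bound kinesin that RefSeq lists as a synonym of KIF4B, was at 20.8 and 23.6 RPKM in H&H 35 mesenchyme and 51.95 and 51.6 RPKM in H&H 31 mesenchyme. KIF4A in epithelium was at 50.6 and 49.2 RPKM at H&H 35 and 36.3 and 33.9 RPKM at H&H 31. It fell by 1.19 (SE 0.08, adjusted p = 1.46e-05) in mesenchyme, the second largest fall of all 62 genes, and rose by 0.50 (SE 0.08, adjusted p = 0.00177) in epithelium. KIF11 (Eg5), the kinesin that pushes the spindle poles apart, was at 15.1 and 20.7 RPKM in H&H 35 mesenchyme and 29.3 and 32.01 RPKM in H&H 31 mesenchyme. KIF11 in epithelium was at 38.5 and 39.3 RPKM at H&H 35 and 24.6 and 23.02 RPKM at H&H 31. The stage change of KIF11 was -0.76 (SE 0.13, adjusted p = 0.00195) in mesenchyme and 0.69 (SE 0.13, adjusted p = 0.00366) in epithelium. NUSAP1 and TPX2, which bundle and nucleate spindle microtubules, changed by -0.70 and -1.05 in mesenchyme and by 0.88 and 0.58 in epithelium. KIF18A, which limits microtubule length, had the highest adjusted p of these genes in epithelium, with a change of 0.39 (SE 0.12, adjusted p = 0.0328), and the call was lost under 8 of 18 alternatives, among them leaving out any epithelium library but H&H 31 epithelium I, or any H&H 31 mesenchyme library (adjusted p up to 0.207).

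The genes of the central spindle and cytokinesis were ANLN, ECT2, KIF20A, KIF23, PRC1 and RACGAP1, and 6 of 6 were lower at H&H 35 in mesenchyme and 6 of 6 higher in epithelium, with medians of -0.82 and 0.78. ANLN (anillin), the scaffold of the contractile ring, was at 19.4 and 24.4 RPKM in H&H 35 mesenchyme and 37.8 and 39.8 RPKM in H&H 31 mesenchyme. ANLN in epithelium was at 40.8 and 38.9 RPKM at H&H 35 and 18.9 and 18.2 RPKM at H&H 31. It fell by 0.80 (SE 0.11, adjusted p = 0.000467) in mesenchyme and rose by 1.06 (SE 0.11, adjusted p = 0.000104) in epithelium. ECT2, the exchange factor that switches on RhoA at the cleavage furrow, was at 6.26 and 8.76 RPKM in H&H 35 mesenchyme and 14.96 and 15.7 RPKM in H&H 31 mesenchyme. ECT2 in epithelium was at 23.1 and 23.3 RPKM at H&H 35 and 14.7 and 11.98 RPKM at H&H 31. ECT2 changed by -0.96 (SE 0.14, adjusted p = 0.000993) in mesenchyme and by 0.76 (SE 0.14, adjusted p = 0.00369) in epithelium, and in both H&H 35 mesenchyme libraries it stood below every other library. KIF23 and RACGAP1 form the centralspindlin complex, and their changes were -1.02 and -0.68 in mesenchyme and 0.80 and 0.45 in epithelium. KIF20A and PRC1, a motor and a bundling protein of the midzone, changed by -0.77 and -0.84 in mesenchyme and by 0.85 and 0.55 in epithelium.

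Chromosome condensation and separation was represented by the condensin genes SMC2, SMC4, NCAPD2, NCAPD3, NCAPG, NCAPG2, NCAPH and NCAPH2, and by TOP2A, MKI67 and CDCA2. Here 11 of 11 were lower at H&H 35 in mesenchyme and 11 of 11 higher in epithelium, with medians of -0.77 and 0.71. TOP2A, the topoisomerase that untangles sister chromatids, was at 45.9 and 64.1 RPKM in H&H 35 mesenchyme and 104 and 109 RPKM in H&H 31 mesenchyme. TOP2A in epithelium was at 106 and 122 RPKM at H&H 35 and 69.8 and 63.6 RPKM at H&H 31. It fell by 0.96 (SE 0.14, adjusted p = 0.000907) in mesenchyme and rose by 0.77 (SE 0.14, adjusted p = 0.00331) in epithelium. MKI67, which coats mitotic chromosomes and is widely used as a proliferation marker, was at 19.7 and 27.7 RPKM in H&H 35 mesenchyme and 34.4 and 35.4 RPKM in H&H 31 mesenchyme. MKI67 in epithelium was at 48.6 and 52.9 RPKM at H&H 35 and 24.7 and 21.9 RPKM at H&H 31. Its change was -0.56 (SE 0.14, adjusted p = 0.0127) in mesenchyme and 1.09 (SE 0.14, adjusted p = 0.000458) in epithelium. The fall of MKI67 in mesenchyme shrank to -0.32 without H&H 35 mesenchyme I (adjusted p = 0.0495) and was not called without either H&H 31 mesenchyme library (adjusted p up to 0.0745). SMC2, a core subunit of both condensins, was at 65.2 and 86.2 RPKM in H&H 35 mesenchyme and 113 and 99.8 RPKM in H&H 31 mesenchyme. SMC2 in epithelium was at 123 and 139.5 RPKM at H&H 35 and 62.7 and 49.8 RPKM at H&H 31. It had the largest epithelial rise of the 62 genes, 1.21 (SE 0.15, adjusted p = 0.000399), and a mesenchymal change of -0.50 (SE 0.15, adjusted p = 0.0288). That mesenchymal call was lost without H&H 35 mesenchyme I (-0.30, adjusted p = 0.166) and without either H&H 31 mesenchyme library (adjusted p up to 0.165). It was also lost with equal sum, median-ratio and quantile scaling (adjusted p = 0.0775, 0.0539 and 0.153) and with no filter on low values (adjusted p = 0.0714), so under 7 of 18 alternatives. The condensin subunits other than SMC2 changed by -1.03 (NCAPH) to -0.42 (NCAPG) in mesenchyme and by 0.47 (NCAPD2) to 0.74 (NCAPH and NCAPG) in epithelium.

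Among the 4 further genes with a CENP or CDCA name, CDCA4 was the only one of the 62 genes with no call for stage in either tissue. CDCA4, a transcriptional regulator of the SERTA family, was at 35.3 and 32.8 RPKM in H&H 35 mesenchyme and 32.7 and 35.1 RPKM in H&H 31 mesenchyme. CDCA4 in epithelium was at 60.4 and 61.1 RPKM at H&H 35 and 63.3 and 69.4 RPKM at H&H 31. Its changes were 0.01 (SE 0.08, adjusted p = 0.968) in mesenchyme and -0.12 (SE 0.08, adjusted p = 0.27) in epithelium, and the mesenchyme libraries of both stages interleaved. With RPKM scaled to an equal sum or with quantile normalization, CDCA4 was called lower at H&H 35 in epithelium (adjusted p = 0.0304 and 0.0417). CDCA7, which acts in chromatin remodelling and DNA methylation with HELLS, changed by -0.80 (SE 0.07, adjusted p = 7.32e-05) in mesenchyme and 0.92 (SE 0.07, adjusted p = 3.13e-05) in epithelium. CENPJ, a centriole assembly protein, changed by -0.70 (SE 0.12, adjusted p = 0.00194) in mesenchyme and -0.06 (SE 0.12, adjusted p = 0.762) in epithelium. CENPV, a centromere-associated protein of chromosome alignment in human cells, was at 14.2 and 12.4 RPKM in H&H 35 mesenchyme and 18.99 and 22.1 RPKM in H&H 31 mesenchyme. CENPV in epithelium was at 13.9 and 11.4 RPKM at H&H 35 and 8.47 and 9.41 RPKM at H&H 31. Both H&H 31 mesenchyme libraries stood above the 6 others and both H&H 31 epithelium libraries below them. CENPV changed by -0.59 (SE 0.13, adjusted p = 0.00607) in mesenchyme and 0.45 (SE 0.13, adjusted p = 0.0224) in epithelium. The epithelial call of CENPV was lost on only the libraries compared (adjusted p = 0.0515) and when any epithelium library but H&H 35 epithelium II was left out (adjusted p up to 0.143), and its mesenchymal call was lost without H&H 31 mesenchyme II (adjusted p = 0.0598).

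**Figure D3:**
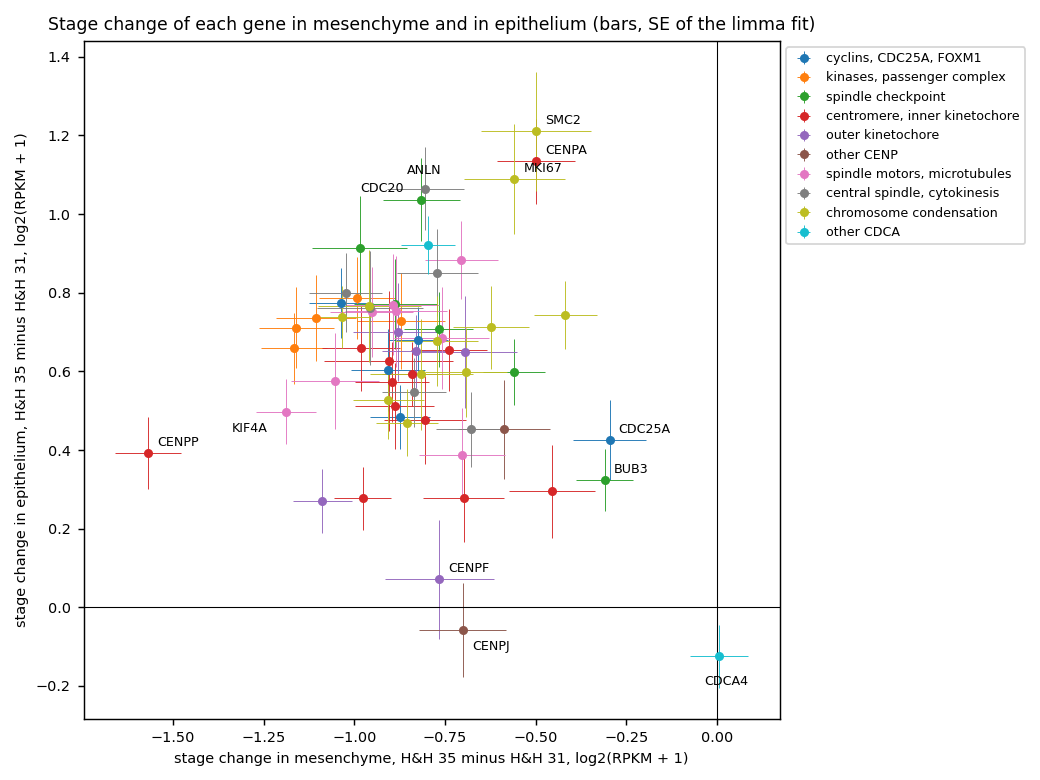
Stage change (H&H 35 minus H&H 31, log2(RPKM + 1)) in mesenchyme (horizontal axis) and in epithelium (vertical axis) for each of the 62 genes, coloured by role, with bars for the SE of the fit. Apart from CDCA4, near 0 on the mesenchyme axis, and CENPJ and CDCA4, below 0 on the epithelium axis, the genes fill the upper left quadrant, and CENPP lies farthest to the left at -1.57.

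Across the 62 genes the sizes of the changes in mesenchyme and epithelium were weakly related, with Pearson's r of -0.15 and Spearman's rho of -0.13 (beside 0.04 and -0.04 over all 11155 genes). The comparisons share no library, but genes of 1 library are not independent, and the coefficients are given as a description. The difference between the stage changes was tested by the interaction term, the change in mesenchyme minus that in epithelium. Of the 62 genes 61 were called lower in it (23.0% of all genes tested) and 0 higher (19.4% of all genes, and 0 of the 62 at an unadjusted p under 0.05 in limma). The median was -1.49, beside -0.05 over all genes. CENPP had the largest difference at -1.96 (SE 0.13, adjusted p = 1.54e-05), ahead of BUB1 at -1.90 (SE 0.19, adjusted p = 9.06e-05), BIRC5 at -1.87 (SE 0.15, adjusted p = 2.97e-05), ANLN at -1.87 (SE 0.15, adjusted p = 3.29e-05) and CDC20 at -1.85 (SE 0.15, adjusted p = 3.52e-05). The smallest called differences were those of BUB3 (-0.63, SE 0.11, adjusted p = 0.00211), CENPJ (-0.64, SE 0.17, adjusted p = 0.0148), CDC25A (-0.72, SE 0.14, adjusted p = 0.00384) and CENPK (-0.75, SE 0.17, adjusted p = 0.007). The call of CENPJ was lost when H&H 31 epithelium II or H&H 31 mesenchyme II was left out. Quantile normalization ended the call of CENPK (adjusted p = 0.056), and equal sum scaling that of CENPF (adjusted p = 0.0592). CDCA4 was the 1 gene without a call, at 0.13 (SE 0.11, adjusted p = 0.389). For CENPP the limit of overlapping spans given above holds here too.

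The tissue comparisons were reversed between the stages. At H&H 35, 61 of the 62 genes were lower in mesenchyme than in epithelium (37.1% of all genes tested) and 0 were higher (29.1% of all genes, and 0 of the 62 at an unadjusted p under 0.05 in limma), with a median difference of -0.96 beside -0.10 over all genes. At H&H 31, 52 were higher in mesenchyme (29.7% of all genes) and 3 were lower (27.7% of all genes), with a median of 0.54 beside -0.01. Being called lower in mesenchyme at the later stage and higher there at the earlier one was the pattern of 51 of the 62 genes and of 3.38% of all genes tested. As ratios of mean RPKM, mesenchyme over epithelium, the median member was at 0.497 at H&H 35 and at 1.47 at H&H 31.

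At H&H 35 the largest tissue differences were those of CENPH (-1.61, SE 0.11, adjusted p = 2.05e-06), ECT2 (-1.52, SE 0.14, adjusted p = 1.61e-05), CCNB2 (-1.41, SE 0.09, adjusted p = 1.07e-06), CDC20 (-1.39, SE 0.11, adjusted p = 3.64e-06) and CENPQ (-1.39, SE 0.08, adjusted p = 5.59e-07), which span the kinetochore, the cleavage furrow, a cyclin and the checkpoint. AURKA differed by -1.33 (SE 0.11, adjusted p = 6.3e-06), CENPA by -1.25 (SE 0.11, adjusted p = 8.13e-06), BUB1B by -1.11 (SE 0.09, adjusted p = 7.9e-06) and PLK1 by -1.09 (SE 0.09, adjusted p = 6.3e-06). KIF11 differed by -1.09 (SE 0.13, adjusted p = 6.97e-05), CCNA2 by -1.09 (SE 0.10, adjusted p = 1.54e-05), MKI67 by -1.08 (SE 0.14, adjusted p = 0.000119) and TOP2A by -1.06 (SE 0.14, adjusted p = 0.000157). Smaller differences were found for CENPF (-0.89, SE 0.15, adjusted p = 0.000651), FOXM1 (-0.68, SE 0.08, adjusted p = 7.75e-05) and NDC80 (-0.61, SE 0.09, adjusted p = 0.000348). CENPV was the 1 gene without a call (0.07, SE 0.13, adjusted p = 0.623), and its libraries overlapped. Its difference turned negative, still without a call, when H&H 35 epithelium II (-0.06) or H&H 35 mesenchyme I (-0.02) was left out. CENPP came next with -0.29 (SE 0.09, adjusted p = 0.0207), a call that did not hold with H&H 35 mesenchyme I, or any H&H 35 epithelium library, left out (adjusted p up to 0.0998), nor with equal sum or median-ratio scaling (adjusted p = 0.152 and 0.0752) or on only the libraries compared (adjusted p = 0.0615).

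At H&H 31 the largest differences in favour of mesenchyme were those of CENPP (1.67, SE 0.09, adjusted p = 3.93e-07), CENPV (1.12, SE 0.13, adjusted p = 5.74e-05), ANLN (1.03, SE 0.11, adjusted p = 3e-05), SMC2 (0.91, SE 0.15, adjusted p = 0.0007) and NDC80 (0.87, SE 0.09, adjusted p = 4.16e-05). PLK1 was higher by 0.74 (SE 0.09, adjusted p = 9.47e-05), FOXM1 by 0.68 (SE 0.08, adjusted p = 8.66e-05), TOP2A by 0.67 (SE 0.14, adjusted p = 0.00332) and AURKA by 0.51 (SE 0.11, adjusted p = 0.00355). MKI67 differed by 0.56 (SE 0.14, adjusted p = 0.00725), CCNA2 by 0.42 (SE 0.10, adjusted p = 0.00705), CCNB2 by 0.41 (SE 0.09, adjusted p = 0.0038), CENPA by 0.39 (SE 0.11, adjusted p = 0.0128), BUB1B by 0.36 (SE 0.09, adjusted p = 0.00939) and KIF11 by 0.35 (SE 0.13, adjusted p = 0.0443). The level of CENPP is under the limit of overlapping spans given above. When 1 library was left out, the median of the 62 genes lay between 0.49 and 0.54. Without H&H 31 epithelium II, 12 calls were lost, those of MKI67, CCNA2, CENPA, BUB1B and KIF11 among them (adjusted p between 0.0557 and 0.178). The call of KIF11 was lost under 10 of 18 alternatives, among them leaving out any library except the H&H 35 mesenchyme ones, and equal sum scaling (adjusted p = 0.115). Further calls were lost for CENPA without H&H 31 mesenchyme I, and BUB1B without H&H 31 mesenchyme II. NCAPG (0.24, adjusted p = 0.0397) lost its call with the batch number as a block (adjusted p = 0.0523), with equal sum scaling (adjusted p = 0.101), with no trend of the variance prior (adjusted p = 0.0566) and without any H&H 31 library (adjusted p up to 0.144).

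The 3 genes that were lower in mesenchyme at H&H 31 were CDCA4 (-0.95, SE 0.08, adjusted p = 7.98e-06), CDC25A (-0.52, SE 0.10, adjusted p = 0.00194) and CENPH (-0.32, SE 0.11, adjusted p = 0.0336). For all 3 genes each mesenchyme library was below each epithelium library at both stages. The same held for CENPF and CENPQ, which were not called at H&H 31. At H&H 31 this made 5 of the 62 genes, beside 40.8% of all genes tested. The call of CENPH was lost when H&H 31 epithelium I (-0.19, adjusted p = 0.247) or H&H 31 mesenchyme II (adjusted p = 0.195) was left out, with no filter on low values (adjusted p = 0.0598) and with no trend of the variance prior (adjusted p = 0.0541). The 7 genes without a call at H&H 31 were CENPF, CENPJ, CENPK, CENPN, CENPQ, ECT2 and KIF18A, with differences from -0.13 for CENPQ to 0.29 for CENPN.

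**Figure D4:**
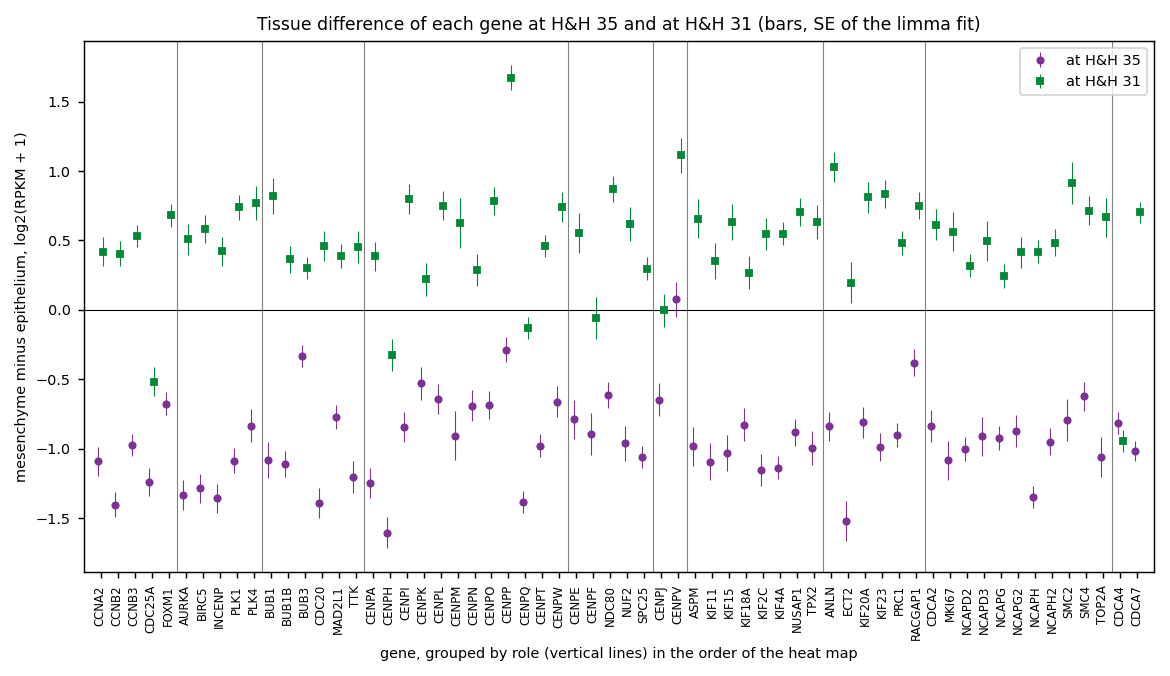
Tissue difference (mesenchyme minus epithelium, log2(RPKM + 1)) of each of the 62 genes at H&H 35 (purple circles) and at H&H 31 (green squares), ordered by role and with bars for the SE of the fit. The H&H 35 values lie below 0 for all genes but CENPV, and most H&H 31 values lie above 0, with CENPP highest at 1.67 and CDCA4 lowest at -0.95.

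The order of the 4 group means was shared by many members. In 34 of the 62 genes (54.8%, beside 5.6% of all genes tested) H&H 35 epithelium was followed by H&H 31 mesenchyme, then H&H 31 epithelium and last H&H 35 mesenchyme. A further 11 genes (17.7%, beside 3.06% of all genes tested), FOXM1, KIF4A, PLK1 and TPX2 among them, differed only in that H&H 31 mesenchyme came before H&H 35 epithelium. H&H 35 mesenchyme was the lowest group for 50 genes and the highest for 0, and H&H 35 epithelium was the highest for 43 and the lowest for 0. Over all genes tested, 33.0% were lowest and 23.9% highest in H&H 35 mesenchyme, and 30.7% were highest and 22.3% lowest in H&H 35 epithelium. In mesenchyme both H&H 35 libraries were below both H&H 31 libraries for 61 genes (38.1% of all genes), and in epithelium both H&H 35 libraries were above both H&H 31 libraries for 59 genes (37.5% of all genes). The 34 genes included members of every role named above, such as ASPM, CCNB3, CENPT, INCENP, NCAPH, NUF2, PRC1, TTK and CDCA7.

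The libraries of 1 group differed most in H&H 35 mesenchyme. There batch II was above batch I for 52 of the 62 genes (47.7% of all genes tested), with a median difference of 0.18 on the log2 scale (-0.01 over all genes tested), and TOP2A, for example, was at 45.9 RPKM in batch I and 64.1 RPKM in batch II. In H&H 31 epithelium batch II was below batch I for 48 of the 62 genes and above it for 14, beside 48.6% of all genes tested above. The median difference of batch II from batch I was 0.03 in mesenchyme of H&H 31, -0.05 in epithelium of H&H 35 and -0.07 in epithelium of H&H 31. The H&H 35 mesenchyme libraries also differed in markers of other cells. In batches I and II the summed RPKM of 10 striated muscle markers was 67.3 and 7.16 and that of 7 leukocyte markers 104 and 54.7, and none of these markers was at 0 in all libraries. Between the stages, the sum of 11 endothelial markers was 189 to 223 in H&H 35 mesenchyme and 112 to 116 in H&H 31 mesenchyme, that of 7 smooth muscle and pericyte markers 82.6 to 105 in H&H 35 mesenchyme and 29.4 to 29.5 in H&H 31 mesenchyme, and that of 8 neuronal and Schwann cell markers 49.1 to 59.3 in H&H 35 mesenchyme and 131 to 141 in H&H 31 mesenchyme. In epithelium the sum of 7 melanocyte markers was 349 to 404 at H&H 35 and 198 to 267 at H&H 31. That of 5 red cell markers in mesenchyme was 423 to 447 at H&H 35 and 494 to 850 at H&H 31. Their part in the changes of the 62 genes was not tested. Without H&H 35 mesenchyme I, the median of the 62 genes was -0.71 for stage in mesenchyme and -0.83 for tissue at H&H 35. In the interaction term the median was then -1.40. With all libraries these medians were -0.83, -0.96 and -1.49.

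Other genes of mitosis, listed by function but with earlier results of these data known, were given the same comparisons. Of 47 tested, 41 were lower at H&H 35 in mesenchyme and 1 was higher (21.6% and 18.2% of all genes tested), and 29 were higher in epithelium and 1 was lower (18.6% and 15.9% of all genes), with median changes of -0.79 and 0.49. MIS12, a kinetochore linker, averaged 7.62 RPKM in H&H 35 mesenchyme and 19.8 RPKM in H&H 31 mesenchyme (-1.28, SE 0.14, adjusted p = 0.000194). CKS1B, a small subunit of cyclin-dependent kinases, averaged 57.8 RPKM in H&H 35 mesenchyme and 126.6 RPKM in H&H 31 mesenchyme (-1.12, SE 0.11, adjusted p = 8.8e-05). The gene that fell in epithelium was KIF26A, a kinesin that signals rather than moves on microtubules in the mouse, with 18.4 RPKM in H&H 35 epithelium and 48.1 RPKM in H&H 31 epithelium (-1.34, SE 0.13, adjusted p = 0.000108). The gene that rose in mesenchyme was SGOL2, a protector of centromeric cohesion (0.40, SE 0.14, adjusted p = 0.0483). Of the 4 genes under older names, 4 were lower in mesenchyme and 3 higher in epithelium. APITD1 (CENPS) was the exception, with -0.13 (SE 0.07, adjusted p = 0.207) in epithelium and -0.89 (SE 0.07, adjusted p = 4.13e-05) in mesenchyme, and MLF1IP (CENPU) changed by -0.86 (SE 0.10, adjusted p = 0.000238) in mesenchyme and 0.37 (SE 0.10, adjusted p = 0.0198) in epithelium. CENPC1 (CENPC), which links centromeric chromatin to the outer kinetochore, changed by -0.79 (SE 0.09, adjusted p = 0.000181) in mesenchyme and 0.41 (SE 0.09, adjusted p = 0.0063) in epithelium. APITD1 and MLF1IP are also among the 47.

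The regulators that switch such genes on and off were given the same tests. Of 19 tested genes of the DREAM complex and the E2F and MYB families, 14 were lower in mesenchyme and 0 higher, beside 21.6% and 18.2% of all genes tested. In epithelium 11 were higher and 2 lower, beside 18.6% and 15.9% of all genes, and the medians were -0.41 and 0.38. E2F2, an activating E2F, had the largest change, with 11.4 RPKM in H&H 35 epithelium and 2.50 RPKM in H&H 31 epithelium (1.80, SE 0.16, adjusted p = 4.77e-05). E2F5, a member of the repressive group, moved the other way there, at 10.3 RPKM in H&H 35 epithelium and 28.9 RPKM in H&H 31 epithelium (-1.40, SE 0.10, adjusted p = 1.48e-05). E2F8, an atypical repressor that is itself periodic, averaged 6.70 RPKM in H&H 35 mesenchyme and 16.3 RPKM in H&H 31 mesenchyme (-1.17, SE 0.10, adjusted p = 3.57e-05). MYBL2 (B-MYB), which works with FOXM1 on mitotic promoters, changed by -0.36 (SE 0.08, adjusted p = 0.00741) in mesenchyme and 0.38 (SE 0.08, adjusted p = 0.00653) in epithelium.

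Of 12 subunits and activators of the anaphase-promoting complex, which acts on CDC20 and the cyclins, 7 were lower in mesenchyme and 0 higher, beside 21.6% and 18.2% of all genes tested. In epithelium 2 were higher and 1 lower, near the 18.6% and 15.9% of all genes, and the medians were -0.30 and 0.07. ANAPC1, its largest subunit, changed by -0.51 (SE 0.10, adjusted p = 0.00393) in mesenchyme, CDC16 by -0.45 (SE 0.09, adjusted p = 0.00464) and ANAPC16 by -0.44 (SE 0.09, adjusted p = 0.00432). For comparison, of 31 genes of DNA replication, the earlier step of the cell cycle, 31 were lower at H&H 35 in mesenchyme and 24 were higher and 1 lower in epithelium, beside the same shares of all genes, with medians of -0.82 and 0.53. CDC6, which licenses origins, averaged 4.25 RPKM in H&H 35 mesenchyme and 10.6 RPKM in H&H 31 mesenchyme (-1.16, SE 0.16, adjusted p = 0.000523), and GINS2 and LIG1, of the replicative helicase and of DNA ligation, changed by -1.15 (SE 0.15, adjusted p = 0.000522) and -1.06 (SE 0.08, adjusted p = 2.75e-05). The exception in epithelium was GMNN (geminin), which blocks a second round of licensing, at 50.5 RPKM in H&H 35 epithelium and 76.2 RPKM in H&H 31 epithelium (-0.58, SE 0.08, adjusted p = 0.000815). At H&H 31, 15 of these 31 genes were higher in mesenchyme than in epithelium and 1 was lower, beside 29.7% and 27.7% of all genes tested. Of the 62 mitotic genes 52 were higher and 3 lower there, and whether the shares differ was not tested.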

How the data were processed

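RNA was sequenced from separated epithelium and mesenchyme of chicken embryonic dorsal skin, with 2 libraries for each tissue and stage. The deposited table, made by the authors with Partek software after TopHat2 alignment to galGal4 per the labels (tool versions, gene annotation and strand setting not given in the sources used here), holds RPKM per gene and a count of alignments per library. RPKM keep no read counts, so depth sets the precision of a single value only through the total of alignments. From the RPKM, log2(RPKM + 1) was fitted in limma 3.58.1 (R 4.3.3) as 4 group means with no batch term and a prior on the variance that depends on mean level. The fit took in the 11155 genes that reached an RPKM of 1 in 2 or more libraries. P-values were adjusted by the Benjamini-Hochberg method over all genes tested, and a gene was called at an adjusted p under 0.05. The p-values rest on the spread between the 2 libraries of a group, pooled over the 4 groups and moderated towards that prior.

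The 62 genes and the other lists were chosen with earlier results of these data known. Values in every library are given for up to 5 called genes with the largest change in each comparison and direction, for a set of mitotic marker genes, and for genes called against the direction most took. Members outside that rule were named after their values were seen. In the other lists up to 3 called genes with the largest stage change are named. Some genes of those lists, such as MYBL2, SGOL2 and CCND2, were named outside that rule.

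The labels call the replicate numbers batches. Over 11155 genes, deviations of same-numbered libraries from their group means correlated at 0.316 between tissues at H&H 35 and at 0.194 at H&H 31, at -0.152 between stages in epithelium and at 0.0332 in mesenchyme. A fit with the batch number as a block was 1 of the alternatives. That block is 1 term shared by both stages, so it does not model a deviation shared by the tissues of a single stage. The others were other pseudocounts, filters and scalings, only the libraries compared, no variance trend, and each library left out in turn. The fit was tested on simulated data. RefSeq (GRCg7b) served for names and overlapping spans only, since the files use galGal4. Promoter sequences were not analysed here.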

Additional observations from a re-analysis of the deposited data

Results flagged for a closer look

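For 61 of the 62 mitotic genes (23.0% of all genes tested) the change with stage was more negative in mesenchyme than in epithelium. This is by the interaction term of limma (adjusted p under 0.05), in which 19.4% of all genes tested were called higher. The differences of the 5 genes with the largest values were -1.96 for CENPP, -1.90 for BUB1, -1.87 for BIRC5, -1.87 for ANLN and -1.85 for CDC20 on the log2(RPKM + 1) scale. AURKA (-1.84), PLK1 (-1.83) and CCNB2 (-1.81), which act at the entry into mitosis, lay close to them. TOP2A differed by -1.72, MKI67 by -1.65 and CENPA by -1.63. CCNA2 (-1.51), NDC80 (-1.48), BUB1B (-1.47), KIF11 (-1.44) and FOXM1 (-1.36) lay near the median member, and CENPF (-0.84) below it in size. The call of CENPF was lost with equal sum scaling (limma adjusted p = 0.0592). The span of CENPP overlaps those of other genes, and their part in its level was not tested.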

How the results depend on the processing

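Over all 62 genes, 5 comparisons and their alternatives, 129 of 5246 values of called changes lost the call and 0 changed sign, and 10 of 267 values of uncalled changes gained a call. Of the 295 calls, 40 were lost under at least 1 alternative. All 9 sign changes were of uncalled values, those of CENPF (2) and CENPJ (1) for stage in epithelium, CDCA4 (2) for stage in mesenchyme, CENPV (2) for tissue at H&H 35 and CENPJ (2) for tissue at H&H 31. CENPF in epithelium was at -0.043 with RPKM scaled to an equal sum and between -0.0895 and 0.23 with 1 library left out (-0.0895 without H&H 35 epithelium II), against 0.07 with all libraries. Equal sum scaling left 50 genes higher for stage in epithelium, against 57, without BUB3, CENPH, CENPP, CENPQ, KIF18A, NCAPD3 and SPC25, and quantile normalization left 54, without BUB3, CENPQ and SPC25. With equal sum scaling the median of the 62 genes was 0.54 for stage in epithelium, -0.84 for tissue at H&H 35 and -1.33 for the difference of stage changes, while the median of all genes moved by over 0.1 in the last 2, to 0.01 and 0.10. Median-ratio scaling gave -0.86 for tissue at H&H 35 and -1.40 for the difference of stage changes, which was -1.39 with quantile normalization and -1.58 with a pseudocount of 0.1. With equal sum scaling or quantile normalization 1 gene, CDCA4, was called lower for stage in epithelium and 1, again CDCA4, higher in the difference of stage changes. Leaving out each library in turn gave medians of -0.93 to -0.71 for stage in mesenchyme, -1.04 to -0.83 for tissue at H&H 35 and -1.58 to -1.40 for the difference of stage changes, the end values being those without H&H 35 mesenchyme II and I. The counts then ranged from 47 to 58 higher for stage in epithelium, 56 to 60 lower for stage in mesenchyme, 60 to 61 lower for tissue at H&H 35, 40 to 53 higher for tissue at H&H 31 and 60 to 61 lower in the difference of stage changes. The cause of these shifts was not tested. The shares of all genes called under the alternatives are not given. Whether the 62 genes lost calls more or less often than other genes is therefore not known. With the replicate block, 60 genes were lower for stage in mesenchyme and 51 higher for tissue at H&H 31, since CDC25A and NCAPG lost their calls, and the block changed no other call of the 62 genes. CENPJ is not tested at a minimum RPKM of 5, and the fit on only the libraries compared was not run for the difference of stage changes. With 2 libraries a group, calls on small changes are uncertain, and lost calls were not confined to genes of low level. SMC2, with the highest mean over the groups (92.4 RPKM), lost its mesenchymal stage call under 7 of 18 alternatives.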

Other observations

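Of 6 tested G1 cyclins and their kinases, 3 were higher and 1 lower at H&H 35 in epithelium (median log2 change 0.40), beside 18.6% and 15.9% of all genes tested. In mesenchyme 0 were higher and 1 lower (median -0.10), beside 18.2% and 21.6% of all genes. CCNE2, the cyclin of the start of S phase, averaged 4.35 RPKM in H&H 35 mesenchyme and 9.42 RPKM in H&H 31 mesenchyme, against 12.8 RPKM in H&H 35 epithelium and 5.74 RPKM in H&H 31 epithelium, and was called in both tissues (limma adjusted p = 0.000244 and 0.00017). CCND1, a D-type cyclin that couples growth signals to the cycle, rose in epithelium, at 38.9 RPKM in H&H 35 epithelium and 19.5 RPKM in H&H 31 epithelium (adjusted p = 0.000186), with an adjusted p of 0.092 in mesenchyme and of 0.000306 for the difference of the stage changes. CCND3 had 12.8 RPKM in H&H 35 epithelium and 6.12 RPKM in H&H 31 epithelium (adjusted p = 0.000353), while CCND2 fell there (-0.45, adjusted p = 0.0206).

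Of 5 tested inhibitors of cyclin-dependent kinases and WEE1-type kinases, 3 were higher and 0 lower at H&H 35 in epithelium (18.6% and 15.9% of all genes), and 1 was higher and 2 lower in mesenchyme (18.2% and 21.6%). A further such gene, added to the list separately, was called higher in epithelium (log2 change 0.63) and not called in mesenchyme (0.25). CDKN1B (p27), which holds cells out of the cycle, was the gene that rose in mesenchyme, with 41.1 RPKM in H&H 35 mesenchyme and 19.9 RPKM in H&H 31 mesenchyme (log2 change 1.01, adjusted p = 0.000448), and it was also higher in H&H 35 epithelium (0.48, adjusted p = 0.0206). CDKN3, a phosphatase of CDKs, and WEE1 fell in mesenchyme (-1.17 and -0.87, adjusted p = 3.78e-05 and 4.9e-05). Of 11 cohesin genes, which hold sister chromatids together and also shape interphase chromatin, 3 were higher and 0 lower in epithelium, beside the same 18.6% and 15.9%, and 1 was higher and 0 lower in mesenchyme, beside 18.2% and 21.6%, so that the higher counts lay near the share of all genes in epithelium and under it in mesenchyme. PDS5B, a cohesin regulator, was the gene that rose in mesenchyme, at 31.2 RPKM in H&H 35 mesenchyme and 19.7 RPKM in H&H 31 mesenchyme (0.63, adjusted p = 0.00259), and RAD21, the ring subunit cut at anaphase, rose in epithelium (0.45, adjusted p = 0.00656). ESCO2, of the same list, also rose in epithelium (0.50, limma adjusted p = 0.022). It was not called in mesenchyme (-0.34, adjusted p = 0.0852) and was called lower in the interaction term (-0.84, adjusted p = 0.00876).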
